A study of Mus musculus with 30 samples.

Results

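Livers lacking both PPARα and CREB3L3 were compared with wild-type (WT) livers after mice had eaten a ketogenic diet. The comparison rests on 8 of the 30 livers of the series, 4 from PPARα/CREB3L3-/- mice and 4 from WT mice, chosen by their sample labels, and on all 18820 genes that have a probe set with 1 gene symbol. The mice were males of about 8 weeks on a C57BL/6 background, fed the very low carbohydrate Bio-Serv diet F3666 for 4 days and killed in the morning without a fast. Both alleles are germline deletions present in every tissue. The PPARα-/- line is the Jackson Laboratory line that carries the tm1Gonz allele of *Ppara*, the CREB3L3-/- line was backcrossed onto C57BL/6 over many generations, and the 2 lines were interbred to obtain the combined knockout. Livers of 3 PPARα-/- and 4 CREB3L3-/- mice on the same diet, and of 4 PPARα/CREB3L3-/- and 4 WT mice after a 16 h fast, serve for comparison. Each liver has 1 array of the type Affymetrix Mouse Gene 1.1 ST, on which probes lie along the whole transcript, and values are log2 intensities, so that a difference of 1 is a doubling.

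A ketogenic diet supplies nearly all energy as fat, and the liver oxidizes fatty acids in mitochondria and peroxisomes and exports ketone bodies. PPARα is a nuclear receptor that is activated by fatty acids, binds DNA as a dimer with RXR at direct repeats spaced by a single base, and switches on genes of fatty acid uptake, oxidation and ketogenesis. CREB3L3 (CREB-H) is a transcription factor held in the membrane of the endoplasmic reticulum, is released by cleavage in the Golgi, and is known for its action on apolipoproteins, lipoprotein lipase cofactors and the hormone FGF21. PPARα is also known to raise *Creb3l3* itself.

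To show what these binding elements look like at members discussed later, promoter windows from RefSeq (build GRCm38.p6, 250 bases before to 50 after a gene's start) were searched on both strands. The direct repeat was AGGTCA, 1 base of spacing and AGGTCA, with at most 1 mismatch over the 12 compared letters. It was present in 84 of the 14749 measured genes with a window, or 0.57%, in 0.838% of the genes lower and in 0.635% of the genes higher in PPARα/CREB3L3-/- livers. None of the 17 mitochondrial and 18 peroxisomal fatty acid oxidation genes with a window held it. That says only that these letters are not in their windows. The letters TGACGT, searched as a cyclic AMP response element, were in 10.3% of measured genes with a window. They were in 10.1% of the lower and 13.9% of the higher genes, and in 2 of 13 CREB3L3 targets of the study. No sequence is shown for them. Among the genes described below, *Fabp1*, the liver fatty acid binding protein, and *Adh4*, an alcohol dehydrogenase, hold a match to the direct repeat. Capitals mark the pair of half-sites.
Fabp1 (chr6:71199804-71199833, gene on the plus strand): acaatcacTGACCTaTGGCCTatatctgag
Adh4 (chr3:138415471-138415500, gene on the plus strand): ctgggtagAGGTGAaAGGTCAgagtcagaa

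The interferon-stimulated response element was searched as GAAA, 2 bases of any kind and GAAA. Among measured genes with a window, 576 (3.91%) held it, with 6.44% of the lower and 3.72% of the higher genes. The element was in 14 of 22 interferon-stimulated genes with a window (63.6%). Its letters are capitalized in *Ifit1* and *Ifit3*, induced proteins that bind viral RNA, in *Gbp3*, a guanylate binding GTPase, and in *Bst2*, the tetherin that holds virions at the cell surface. The same letters stand in the windows of *E2f8*, *Glul*, *Saa4* and *Ppcs*, which were lower, and of *Igf2bp3*, which was higher, and the 4 sequences shown were picked as members of the interferon group. Values of all these genes are given below. Each sequence is written along the strand of its gene, which is minus for *Bst2* and plus for *Ifit1*, *Ifit3* and *Gbp3*.
Ifit1 (chr19:34640796-34640822): agtctcagTTTCagTTTCtcactgctg
Ifit3 (chr19:34583399-34583425): taagtctgTTTCagTTTCtactttcct
Gbp3 (chr3:142559991-142560017): ggacacagTTTCagTTTCtatttccca
Bst2 (chr8:71537584-71537610): cattccagGAAAatGAAActgaaaggc

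The targeted genes were read first. *Creb3l3* read 5.16, 4.57, 4.9 and 4.97 in PPARα/CREB3L3-/- livers, against 10.46, 10.48, 10.42 and 10.45 in WT livers, which is -5.55 as a log2 fold change (SE 0.14, adjusted p = 4.8e-20). It averaged 4.37 ± 0.08 in CREB3L3-/- livers (SD, n = 4) and 9.74 ± 0.23 in PPARα-/- livers (SD, n = 3), so every array matched its label for this gene. *Ppara* read 7.48, 7.62, 6.62 and 7.31 in PPARα/CREB3L3-/- livers, against 10.54, 10.54, 10.51 and 10.37 in WT livers (log2 fold change -3.23, SE 0.27, adjusted p = 4.3e-10). The single knockouts lay between, at 7.62 ± 0.37 in PPARα-/- (SD, n = 3) and 8.64 ± 0.44 in CREB3L3-/- livers (SD, n = 4). The PPARα allele deletes only a stretch of the gene while probes cover the transcript, so the *Ppara* signal is not a full check of genotype.

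Calls needed P under 0.001 in limma together with a fold change beyond 1.2. By this rule 1884 of the 21218 probe sets with 1 symbol were higher in PPARα/CREB3L3-/- than in WT livers (8.88%) and 2013 were lower (9.49%). Counted once per gene on its brightest probe set, 1400 genes were higher (7.44%) and 1931 were lower (10.3%), and these 2 shares are the background against which the counts for groups of genes below are read. Larger changes leaned to the side of loss, with 293 genes higher and 652 lower by more than 2-fold. The median log2 fold change of all genes was -0.012, and in 27.3% of probe sets the 4 livers of each group did not overlap. Arrays of a group correlated at 0.978 to 0.99 and arrays of different groups at 0.961 to 0.978. PPARα/CREB3L3-/- replicate 3 had the lowest mean correlation with its own group (0.979).

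The 3 deepest losses were in *Mfsd2a*, *Vnn1* and *Fabp2*. *Mfsd2a*, the transporter of lysophosphatidylcholine that carries docosahexaenoic acid, read 3.43, 3.45, 4.73 and 4.2 in PPARα/CREB3L3-/- livers and 11.24, 11.47, 10.97 and 11.08 in WT livers, or -7.24 as a log2 fold change (SE 0.43, adjusted p = 1.8e-12). *Vnn1*, the pantetheinase vanin 1, read 3.79, 4.02, 4.08 and 4.33 against 10.71, 11.11, 10.7 and 10.67 in WT livers (-6.74, SE 0.33). *Fabp2*, the intestinal-type fatty acid binding protein, read 4.47, 4.89, 4.08 and 5.27 against 11.03, 11.02, 11.07 and 10.54 in WT livers (-6.24, SE 0.23). In all 3 genes every PPARα/CREB3L3-/- liver lay more than 5 log2 units below every WT liver, near the median of all probe sets on these arrays (4.22 to 4.34), where the size of a loss is limited by the dimmest signals the array gives. *Car3*, the carbonic anhydrase abundant in male liver and fat, fell by 5.89 on the log2 scale (SE 0.53), with 7.56, 6.34, 6.7 and 7.29 in PPARα/CREB3L3-/- livers and 12.62, 12.57, 13.14 and 13.1 in WT livers. *Serinc2*, thought to place serine into membrane lipids, was at -4.71 (SE 0.17). *Serpina4-ps1*, annotated as a serpin pseudogene, fell by 5.11 (SE 0.8), with WT livers as far apart as 6.55 and 10.61.

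The steepest rise was in *Sult1e1*, the estrogen sulfotransferase, which read 9.5, 9.21, 10.09 and 9.75 in PPARα/CREB3L3-/- livers and 2.96, 2.98, 3.16 and 3.03 in WT livers (log2 6.61, SE 0.56, adjusted p = 8.1e-10). The WT readings lie under the median of all probe sets, so a level above background is not shown in WT and the size of the rise is not an exact fold. *Gpx3*, the secreted glutathione peroxidase, rose by 3.90 (SE 0.25), *Gldn*, the cell adhesion protein gliomedin, by 3.57 (SE 0.34), and *Wnt4*, a secreted Wnt ligand, by 3.39 (SE 0.29). *Igf2bp3*, an RNA-binding protein of fetal tissues, read 8.08, 8.01, 8.22 and 8.61 in PPARα/CREB3L3-/- livers and 4.94, 5.03, 4.43 and 4.65 in WT livers (3.47, SE 0.21, adjusted p = 2.5e-12). Its values overlapped in no liver, and both single knockouts stayed near the WT level, at 4.06 in PPARα-/- and 4.08 in CREB3L3-/- livers. *Pls1*, the actin bundler plastin 1, rose by 3.45 (SE 0.32), *Treh*, the trehalose-splitting enzyme, by 3.06 (SE 0.25), *Gipc2*, a PDZ-domain adaptor, by 3.04 (SE 0.23) and the predicted gene *Gm6614* by 3.11 (SE 0.24). *Cyp2b10*, a drug-metabolizing cytochrome P450 that is a classical target of the receptor CAR, rose by 3.21 (SE 0.62), with 10.17 to 11.58 in PPARα/CREB3L3-/- livers against 6.47 to 8.78 in WT livers. In 2 of the 12 steepest rises WT replicate 1 stood apart from its group. *Nupr1*, a stress-induced chromatin protein, read 8.72 to 10.32 in PPARα/CREB3L3-/- livers and 8.26 in that WT liver, against 5.12 to 6.61 in the other WT livers. *Gpnmb*, a glycoprotein of lipid-laden phagocytes, read 7.21 to 8.03 in PPARα/CREB3L3-/- livers and 6.81 in WT replicate 1, against 3.37 to 3.91 in the other WT livers.

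**Figure D1:**
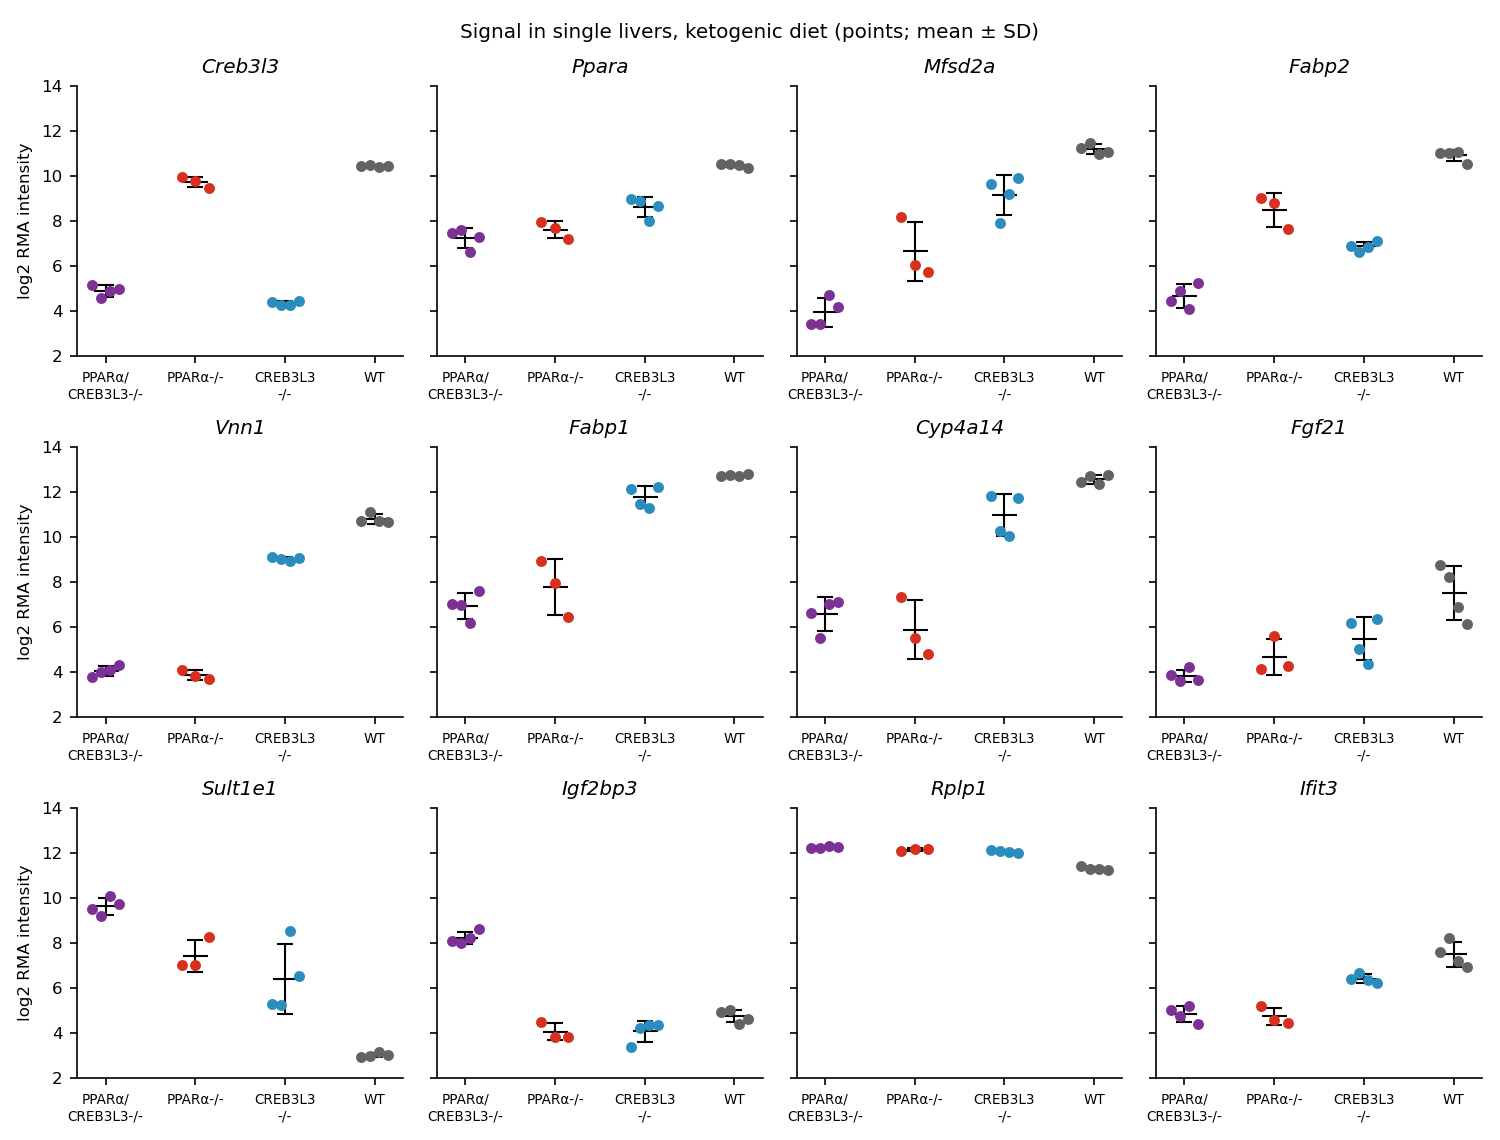
Log2 RMA intensity (vertical axes) of 12 genes in single livers of mice on the ketogenic diet (points), by genotype from PPARα/CREB3L3-/- to WT, with mean ± SD (n = 4, 3, 4 and 4). In *Mfsd2a* and *Fabp2* the PPARα/CREB3L3-/- livers lie below both single knockouts, in *Vnn1* they lie at the PPARα-/- level, and in *Igf2bp3* they alone are high.

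Fatty acid oxidation fell across the pathway. Of 20 measured genes of mitochondrial fatty acid oxidation, 19 fell and 0 rose, with a median log2 fold change of -1.24. Their mean level per liver was 9.53 to 9.85 in PPARα/CREB3L3-/- livers and 10.79 to 11 in WT livers. *Cpt2*, which regenerates acyl-CoA on the inner side of the mitochondrial membrane, read 8.13, 7.98, 7.76 and 8.18 in PPARα/CREB3L3-/- livers and 10.13, 10.39, 10.21 and 10.27 in WT livers (-2.24, SE 0.09, adjusted p = 5.2e-15). *Hadha*, a subunit of the trifunctional protein of beta-oxidation, was at -1.19 (SE 0.08) and *Eci2*, an enoyl-CoA isomerase, at -1.6 (SE 0.1). The 4 livers of each group did not overlap for any of these 3 genes.

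Peroxisomal fatty acid oxidation had 17 of 22 measured genes lower and 1 higher, with a median of -1.27. *Acaa1b*, a peroxisomal thiolase, read 6.83, 7, 6.59 and 7.45 in PPARα/CREB3L3-/- livers and 11.44, 11.58, 11.43 and 11.67 in WT livers (-4.56, SE 0.22). *Decr2*, the peroxisomal dienoyl-CoA reductase, was at -2.78 (SE 0.11) and *Ehhadh*, the bifunctional enzyme of peroxisomal beta-oxidation, at -2.75 (SE 0.15). Of 16 peroxins and ABCD transporters of the peroxisome, 8 fell and 0 rose (median -0.39). The deepest of those named was *Abcd2*, a transporter of very long-chain acyl-CoA, at -3.39 (SE 0.29). *Abcd3*, its abundant relative, was at -0.97 (SE 0.08).

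Omega-oxidation attacks fatty acids from the methyl end. Of 10 measured genes of the CYP4A pathway 8 fell and 1 rose (median -2.08). *Cyp4a14*, a fatty acid hydroxylase, read 6.63, 5.5, 7.03 and 7.13 in PPARα/CREB3L3-/- livers and 12.44, 12.72, 12.36 and 12.74 in WT livers (-5.99, SE 0.47). Its near-identical relatives may share probes with it. *Aldh3a2*, the fatty aldehyde dehydrogenase, was at -1.82 (SE 0.16), and *Adh4*, whose promoter window holds the repeat shown above, at -2.44 (SE 0.25).

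Genes that bring fatty acids in or activate them were lower in 10 of 17 cases and higher in 0 (median -0.72). *Fabp1* read 7.05, 6.99, 6.18 and 7.6 in PPARα/CREB3L3-/- livers, against 12.7, 12.75, 12.71 and 12.78 in WT livers (-5.78, SE 0.38, adjusted p = 6.3e-12), where it is among the brightest probe sets. *Acsl5*, an acyl-CoA synthetase, was at -1.32 (SE 0.09) and *Slc27a1*, a fatty acid transport protein, at -1.26 (SE 0.15). Vanins and genes of coenzyme A turnover fell in 7 of 13 cases and rose in 0, among them *Ppcs*, an enzyme of coenzyme A synthesis, at -1.39 (SE 0.13), and *Nudt7*, a peroxisomal coenzyme A diphosphatase, at -2.5 (SE 0.27).

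Of the 7 measured genes of ketone body metabolism 3 fell and 0 rose. *Bdh1*, which reduces acetoacetate to beta-hydroxybutyrate, read 7.86, 8.28, 6.65 and 8.21 in PPARα/CREB3L3-/- livers and 11.08, 11.44, 11.32 and 11.04 in WT livers (-3.47, SE 0.3). *Acat1*, the mitochondrial thiolase that starts the pathway, was at -1.39 (SE 0.08), and *Aacs*, a cytosolic acetoacetyl-CoA synthetase, at -1.48 (SE 0.3). Branched chain amino acid breakdown had 8 of 23 genes lower and 0 higher (median -0.38), with *Ppm1k*, the phosphatase that activates the branched chain dehydrogenase, at -1.69 (SE 0.16). By contrast the respiratory chain stood near the background, with 2 of 35 complex I genes higher and 3 lower (median 0.01). Complexes II to V had 4 of 33 higher and 3 lower (median -0.05), and the number of members called in either direction, 7, was 4 without WT replicate 4.

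Proteins of the lipid droplet fell in 10 of 18 cases and rose in 0 (median -0.95). *Fitm1*, which partitions triglyceride into droplets, read 4.06, 4.52, 4.69 and 4.25 in PPARα/CREB3L3-/- livers and 9.9, 9.72, 9.86 and 10.01 in WT livers (-5.49, SE 0.35). *Cidec*, which fuses droplets, read 5.62, 5.28, 5.39 and 5.48 in PPARα/CREB3L3-/- livers and 9.75, 9.55, 8.35 and 8.25 in WT livers (-3.53, SE 0.41). *Plin5*, a droplet coat protein, was at -1.76 (SE 0.29), *Mgll*, the monoglyceride lipase, at -2.46 (SE 0.2), and *Hsd17b11*, a dehydrogenase found on droplets, at -1.92 (SE 0.1). *Retsat*, retinol saturase, which is no member of this group, was at -3.39 (SE 0.22).

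Desaturases and elongases of polyunsaturated fatty acids had 5 of 9 genes lower and 1 higher (median -1.99). *Fads2*, a desaturase at the entry of the pathway, read 7.56, 7.56, 7.18 and 7.38 in PPARα/CREB3L3-/- livers and 12, 12.21, 12.07 and 12.27 in WT livers (-4.72, SE 0.25, adjusted p = 4.5e-13). *Elovl5*, an elongase of these fatty acids, was at -2.58 (SE 0.15), and *Elovl2*, which acts on longer chains, at -2.5 (SE 0.16).

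Genes of plasma lipoproteins fell as well. The 15 CREB3L3 targets listed by the study, which were chosen on fasted livers of the same series and not on the livers compared here, had 12 members lower and 0 higher, with a median of -1.99. Their mean level per liver was 9.16 to 9.38 in PPARα/CREB3L3-/- livers and 11.3 to 11.67 in WT livers. Of 14 apolipoproteins 8 fell and 0 rose (median -0.54). *Apoa4*, an apolipoprotein of triglyceride-rich particles, read 10.55, 10.66, 10.35 and 10.67 on its brightest probe set in PPARα/CREB3L3-/- livers and 13.21, 13.36, 13.15 and 13.13 in WT livers (-2.65, SE 0.2). *Apon*, a minor apolipoprotein, was at -1.91 (SE 0.14), *Apoc1*, which slows particle clearance, at -1.23 (SE 0.14), and *Apoa1*, the main protein of high-density lipoprotein, at -0.62 (SE 0.07). Lipases, lipoprotein receptors and assembly factors had 8 of 15 members lower and 0 higher, led by *Lipg*, the endothelial lipase, at -4.67 (SE 0.44), and *Scarb1*, the receptor for high-density lipoprotein, at -0.95 (SE 0.1).

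*Fgf21*, the liver hormone of the ketogenic state, read 3.86, 3.6, 4.22 and 3.64 in PPARα/CREB3L3-/- livers, against 8.74, 8.24, 6.91 and 6.16 in WT livers (-3.68, SE 0.45, adjusted p = 4.2e-07). WT livers spanned more than 2 log2 units, but none overlapped the knockout. Other secreted factors and receptors of the growth hormone axis included *Igfals*, which stabilizes circulating IGF1, at -2.9 (SE 0.23), and *Ghr*, the growth hormone receptor, at -1.2 (SE 0.12). In this group of 19 genes 7 fell and 1 rose. *Mtnr1a*, a melatonin receptor, read 2.96 to 3.36 in PPARα/CREB3L3-/- livers and 4.87 to 5.49 in WT livers (-1.96, SE 0.19).

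**Figure D2:**
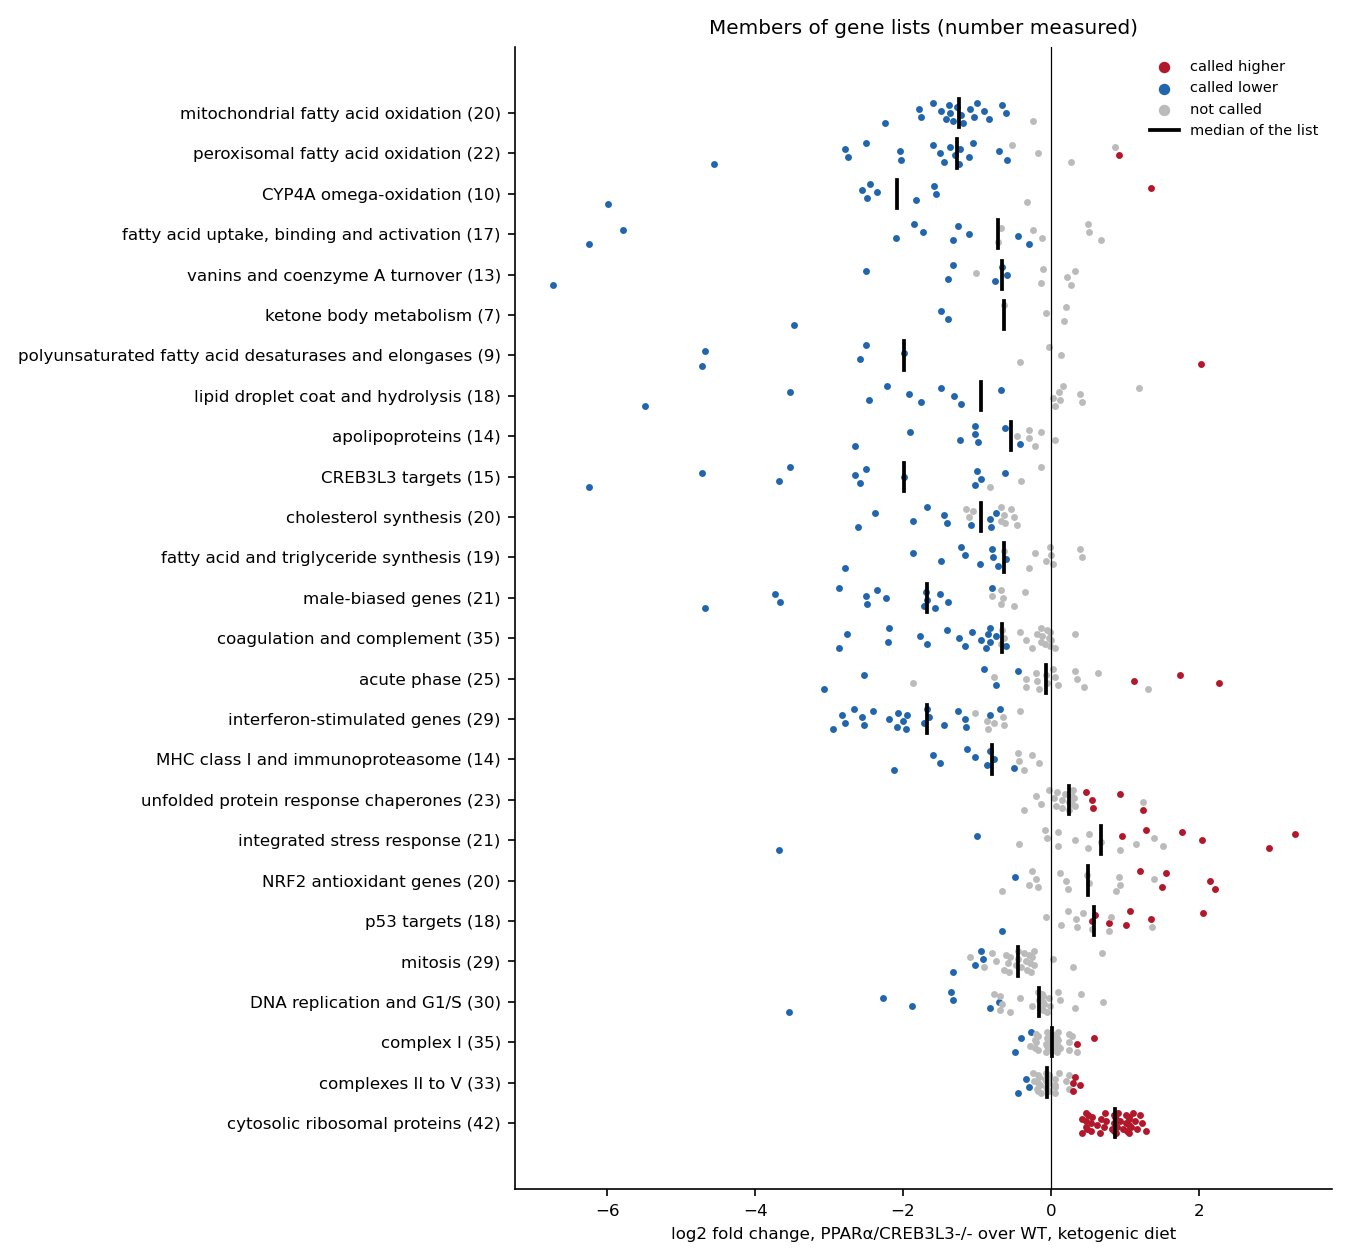
Log2 fold change of PPARα/CREB3L3-/- over WT livers on the ketogenic diet (horizontal axis) for each measured member of 26 gene groups (points, n = 4 livers a genotype), coloured by the call, with the median of the group as a bar. Oxidation genes lie left of 0 with a median of -1.24 in mitochondria, while all 42 ribosomal protein genes lie right of 0.

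Sterol and fatty acid synthesis were lower rather than higher. Of 20 measured genes of cholesterol synthesis 10 fell and 0 rose (median -0.94), and the mean level of the group was 7.23 to 7.85 in PPARα/CREB3L3-/- livers and 8.28 to 9.4 in WT livers. *Insig1*, the sterol sensor that retains SREBP in the endoplasmic reticulum, read 8.74, 8.69, 8.55 and 8.4 in PPARα/CREB3L3-/- livers and 9.79, 10.09, 11.01 and 10.98 in WT livers (-1.87, SE 0.29). *Tm7sf2*, a sterol reductase, was at -2.61 (SE 0.3), and *Sc5d*, a sterol desaturase, at -1.08 (SE 0.14). WT livers fell into a pair near 8.3 and a pair above 8.9 in the mean level of this group, and all 4 lay above the knockout. Fatty acid and triglyceride synthesis had 10 of 19 genes lower and 0 higher (median -0.63). *Srebf1*, the transcription factor of lipogenesis, was at -2.78 (SE 0.22), and *Scd1*, the stearoyl-CoA desaturase, at -1.86 (SE 0.31). *Nr1h3*, the liver X receptor, was at -0.96 (SE 0.11).

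Bile acid synthesis and transport had 9 of 23 genes lower and 4 higher. *Cyp8b1*, the sterol hydroxylase that makes cholic acid, read 7.02, 6.12, 6.51 and 6.57 in PPARα/CREB3L3-/- livers and 9.72, 9.87, 9.94 and 10.8 in WT livers (-3.53, SE 0.38), whereas *Abcc3*, a basolateral exporter, rose by 0.76 (SE 0.1). Glucose production and glycolysis had 9 of 21 genes lower and 1 higher, including *Ldha*, lactate dehydrogenase, at -1.5 (SE 0.09), and *Gpd1*, glycerol-3-phosphate dehydrogenase, at -1.38 (SE 0.17).

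Detoxification and nitrogen metabolism were mixed. The CYP1 to CYP3 families had 6 of 39 genes lower and 3 higher (median -0.11), and glutathione, glucuronide and sulfate transferases 7 of 32 lower and 6 higher (median -0.12). *Ugt3a1*, a glycosyltransferase of small lipophilic molecules, read 6.37, 6.56, 5.96 and 6.55 in PPARα/CREB3L3-/- livers and 10.29, 10.46, 10.57 and 10.56 in WT livers (-4.11, SE 0.44), whereas *Gstm2*, a glutathione transferase, rose by 1.5 (SE 0.2). Carboxylesterases had 4 of 15 lower and 1 higher, led by *Ces3a* at -4.48 (SE 0.45), which belongs to a cluster of close relatives. Urea cycle and ammonia genes had 5 of 11 lower and 0 higher, among them *Glul*, the glutamine synthetase of cells around the central vein, at -1.43 (SE 0.15). Amino acid breakdown had 9 of 28 lower and 4 higher, the TCA cycle 8 of 20 lower and 2 higher with *Idh3b*, a subunit of isocitrate dehydrogenase, at -0.53 (SE 0.05), and autophagy and lysosome 6 of 31 lower and 4 higher. Nuclear receptors and coregulators had 9 of 25 lower and 1 higher, and the number called in either direction, 10, was 6 without WT replicate 4. The genes that the study listed as lower in all 3 knockouts after the fast, chosen on other livers of the same series, had 24 of 32 lower and 0 higher on the ketogenic diet (median -0.92).

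Genes with male-biased expression fell. Of 21 measured genes known to be higher in male liver 15 fell and 0 rose, with a median of -1.67, and their mean level was 8.2 to 8.51 in PPARα/CREB3L3-/- livers and 9.96 to 10.36 in WT livers. *Elovl3*, a fatty acid elongase, read 5.97, 5.52, 5.1 and 5.8 in PPARα/CREB3L3-/- livers and 10.19, 10.56, 9.8 and 10.57 in WT livers (-4.68, SE 0.51). *Mup3*, a major urinary protein whose many near-identical relatives may share its probes, was at -1.71 (SE 0.21). Of the 21 male-biased genes, 10 were also lower than in WT in PPARα-/- livers (median -1.2) and 18 in CREB3L3-/- livers (median -2.44). Female-biased genes did not move as a block: 3 of 17 rose, 2 fell and the median was -0.04. The number called in either direction, 5, was 3 without WT replicate 2.

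Transcripts of proteins secreted into plasma were lower too. Coagulation and complement factors fell in 17 of 35 cases and rose in 0 (median -0.66), with a mean level of 9.41 to 9.75 in PPARα/CREB3L3-/- livers and 10.33 to 10.4 in WT livers. *Serpind1*, heparin cofactor II, was at -1.77 (SE 0.2), *Mbl1*, a mannose-binding lectin, at -2.2 (SE 0.23), and *Cfb*, complement factor B, at -1.24 (SE 0.11). Of the 35 coagulation and complement factors, 18 were also lower than in WT in PPARα-/- livers (median -0.69) and 30 in CREB3L3-/- livers (median -1.49). *Saa4*, a constitutive serum amyloid, fell by 3.07 (SE 0.27), while the acute phase genes had 5 of 25 lower and 3 higher. Hepatocyte transcription factors and secreted proteins had 8 of 18 members lower and 0 higher, with log2 fold changes from -1.3 to 0.19 (median -0.34). Among them *Alb*, albumin, was at -0.29 (SE 0.05), *Ttr*, transthyretin, at -0.74 (SE 0.07) and *Hnf4a*, the hepatocyte nuclear receptor, at -0.56 (SE 0.06). The call for *Alb* was lost without PPARα/CREB3L3-/- replicate 3.

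Genes of ribosomal proteins rose together. All 42 measured genes of cytosolic ribosomal proteins were called higher, by 0.42 to 1.28 (median 0.87), and in each of them the 4 PPARα/CREB3L3-/- livers lay above the 4 WT livers. The mean level of the group was 10.98 to 11.06 in PPARα/CREB3L3-/- livers and 10.07 to 10.26 in WT livers. The single knockouts shared this rise over WT, with 41 of 42 genes higher in PPARα-/- (median 0.78) and 41 in CREB3L3-/- livers (median 0.59). Between PPARα/CREB3L3-/- and PPARα-/- livers 0 of the 42 were called, and against CREB3L3-/- livers 12 were higher. *Rplp1*, a protein of the ribosomal stalk, read 12.24, 12.23, 12.32 and 12.25 in PPARα/CREB3L3-/- livers and 11.41, 11.3, 11.31 and 11.24 in WT livers (0.94, SE 0.05, adjusted p = 4.5e-13). *Rpl35* was at 1.16 (SE 0.06) and *Rpl13*, like it a protein of the large subunit, at 1.11 (SE 0.07). Processed pseudogenes of these genes are common in the mouse genome and may share their probes.

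Interferon-stimulated genes were lower throughout. All 29 measured members had a log2 fold change below 0, 22 of them were called lower and 0 higher, and the median was -1.68. *Ifit3* read 5.02, 4.76, 5.2 and 4.39 in PPARα/CREB3L3-/- livers and 7.62, 8.24, 7.2 and 6.95 in WT livers (-2.66, SE 0.31). *Irf7*, the transcription factor that amplifies the response, read 6.78, 6.97, 6.13 and 6.77 against 8.98, 9.93, 9.13 and 8.71 in WT livers (-2.53, SE 0.26). The groups did not overlap for either gene, and WT replicate 2 was the highest liver for both. *Gbp3* was at -2.94 (SE 0.31), *Ifit1* at -2.83 (SE 0.49), *Bst2* at -2.41 (SE 0.19) and *Iigp1*, an immunity-related GTPase, at -1.65 (SE 0.16). Antigen presentation by MHC class I and the immunoproteasome had 9 of 14 genes lower and 0 higher (median -0.79), among them *Psmb8*, an inducible proteasome subunit, at -2.12 (SE 0.18), *Tapbp*, which loads peptides, at -1.02 (SE 0.09), and *H2-K1*, a class I heavy chain with close relatives, at -0.86 (SE 0.08). *Cxcl9*, an interferon-induced chemokine, was at -3.07 (SE 0.37), whereas inflammatory signalling as a group had 2 of 24 genes lower and 0 higher, and 1 called without WT replicate 1. The mean level of that group overlapped, at 4.68 to 5.59 in PPARα/CREB3L3-/- livers, where replicate 3 was the highest, and 4.84 to 5.57 in WT livers, where replicate 1 was.

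Stress genes moved less uniformly. Of 21 genes of the integrated stress response 6 rose and 2 fell (median 0.68). Their mean level was 6.8 to 7.24 in PPARα/CREB3L3-/- livers and 5.98 to 6.97 in WT livers, and WT replicate 1, the highest of its group, overlapped the knockout. Members included *Slc3a2*, an amino acid transporter subunit, at 1.29 (SE 0.16), and *Shmt2*, a mitochondrial serine enzyme, at -1 (SE 0.12). Of 23 genes of the unfolded protein response 5 rose and 0 fell (median 0.25), including *Manf*, a secreted survival factor, at 0.94 (SE 0.16), and *Hspa5*, the chaperone BiP, at 0.48 (SE 0.09). NRF2 antioxidant genes had 5 of 20 higher and 1 lower, with *Nqo1*, a quinone reductase, at 2.15 (SE 0.19). Of 18 p53 targets 7 rose and 1 fell, and without WT replicate 3 a total of 4 were called. *Ctsl*, a lysosomal protease, rose by 1.65 (SE 0.15), and *Cry1*, a repressor of the circadian clock, by 1.54 (SE 0.26).

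Summed markers of some other liver cells were lower as well. The log2 of the summed signal of 14 macrophage markers was 10.83 to 11.35 in PPARα/CREB3L3-/- livers and 11.51 to 12.1 in WT livers, with 6 markers lower and 2 higher. Among them *Clec4f*, which is particular to Kupffer cells, was at -1.57 (SE 0.18) and *Csf1r*, the receptor that macrophages depend on, at -1.09 (SE 0.12), while *Cd63*, a lysosomal tetraspanin, rose by 2.79 (SE 0.28). Of 9 markers of sinusoidal endothelium 7 fell and 1 rose, with a summed level of 10.69 to 11.29 in PPARα/CREB3L3-/- livers and 11.51 to 11.74 in WT livers. The 3 measured erythroid markers summed to 5.97 to 6.5 in PPARα/CREB3L3-/- livers and 8.11 to 8.65 in WT livers. Of these 3, *Alas2*, the heme synthesis enzyme of red cell precursors, fell by 2.38 (SE 0.21), while *Slc4a1* and *Epb42*, membrane proteins of red cells, were not called, with *Epb42* at 2.49 to 2.85 in PPARα/CREB3L3-/- livers and 2.5 to 2.87 in WT livers. T and NK cell markers summed to 6.5 to 6.67 in PPARα/CREB3L3-/- livers and 6.92 to 7.36 in WT livers, with 1 of 11 called, or 2 without WT replicate 3. The 9 hepatocyte markers summed to 15.82 to 15.98 in PPARα/CREB3L3-/- livers and 16.02 to 16.12 in WT livers, which fits the labelled tissue, with 3 members called lower and log2 fold changes from -0.74 to 0.22. Sums of cholangiocyte, neutrophil, B and plasma cell and stellate cell markers overlapped between the groups. The mean log2 level weighs dim and bright markers alike. For macrophage markers it overlapped, unlike their sum, at 6.44 to 6.98 in PPARα/CREB3L3-/- livers and 6.53 to 7.44 in WT livers. It did not overlap for stellate cell markers, at 7.02 to 7.42 in PPARα/CREB3L3-/- livers and 7.45 to 7.54 in WT livers (3 of 9 lower, 1 higher). It did not overlap for B and plasma cell markers either, at 3.91 to 4.12 in PPARα/CREB3L3-/- livers and 4.33 to 4.65 in WT livers (1 of 6 lower). These PPARα/CREB3L3-/- values lie under the median of all probe sets (4.22 to 4.34). So do the mean levels of T and NK cell markers, at 2.96 to 3.13 in PPARα/CREB3L3-/- and 3.37 to 3.77 in WT livers. Signal above background is therefore not shown for them. In whole liver RNA, fewer cells of a type and less RNA per cell cannot be told apart, and the part of these cells in the interferon, antigen presentation and other results was not tested.

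The combined knockout was next set against each single knockout on the same diet. These contrasts do not use the WT means, but WT arrays enter the common estimate of the spread. They also share the PPARα/CREB3L3-/- livers with the comparison above. Against PPARα-/- livers 647 of 18820 genes were called (3.44%), 202 higher and 445 lower. In probe sets this is 678, and the number rests on few livers: it was 284 without PPARα-/- replicate 2, 440 without PPARα-/- replicate 3 and 420 without PPARα/CREB3L3-/- replicate 3. Apart from *Creb3l3*, which carries the deletion, *Igf2bp3* differed in the upward direction by 4.17. *Fabp2* was lower than in PPARα-/- livers by a log2 fold change of -3.82, *Mfsd2a* by -2.71, *Cidec* by -2.63, *Apoa4* by -2.57 and *Fads2* by -1.84, all called. PPARα-/- livers averaged 8.49 for *Fabp2*, 6.66 for *Mfsd2a*, 8.08 for *Cidec*, 13.13 for *Apoa4* and 9.26 for *Fads2*. The CREB3L3 targets had 9 of 15 members lower and 0 higher in this contrast (median -0.61), and the desaturases and elongases 5 of 9 lower. Mitochondrial oxidation had 1 of 20 members lower (median 0.03), and *Vnn1* (log2 fold change 0.18), *Acaa1b* (-0.02) and *Ehhadh* (0.06) were not called. For interferon-stimulated genes the median was -0.06 with 1 of 29 called, and *Iigp1* was that member, higher by 1.02. Cholesterol synthesis had 0 of 20 members called in this contrast, with log2 fold changes from -1.62 to -0.16 (median -0.73). The mean level of that group ran from 7.81 to 9.15 in PPARα-/- livers and from 7.23 to 7.85 in PPARα/CREB3L3-/- livers. *Abcd2* was higher by 1.51 in PPARα/CREB3L3-/- than in PPARα-/- livers.

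Against CREB3L3-/- livers 5241 genes were called (27.8%), 2001 higher (10.6%) and 3240 lower (17.2%). All 29 genes of mitosis were lower in PPARα/CREB3L3-/- livers (median -4.27), as were all 30 of DNA replication and G1/S (median -2.49) and 17 of 20 of stellate cell activation and collagens. Against WT, mitosis had 4 of 29 members lower and 0 higher (median -0.45), and the number called, 4, was 0 without WT replicate 2 and 8 without WT replicate 4. DNA replication had 7 of 30 lower against WT, with *E2f8*, a repressor of the E2F family, at -3.54 (SE 0.35), and *Ccnd1*, cyclin D1, at -2.27 (SE 0.28). *Ccnd1* read 6.61, 7.24, 5.6 and 7.17 in PPARα/CREB3L3-/- livers and averaged 10.22 in CREB3L3-/- livers.

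Many hepatocyte functions ran the other way against CREB3L3-/-. Amino acid breakdown had 26 of 28 genes higher in PPARα/CREB3L3-/- livers (median 1.42), branched chain amino acid breakdown 20 of 23, complex I 27 of 35 and bile acid synthesis and transport 15 of 23. *Slco1a4*, an uptake transporter of organic anions, was higher by 5.72 and *Cyp8b1* by 2.63. *Akr1c18*, which inactivates progesterone, was lower by a log2 fold change of -6.5, with 3.07, 4.08, 2.51 and 3.06 in PPARα/CREB3L3-/- livers, an average of 9.68 in CREB3L3-/- livers and 2.81, 3.63, 2.46 and 2.62 in WT livers. *Afp*, the fetal albumin, was lower by -4.69, yet higher than in WT by 2.14 (SE 0.35). The highest WT liver read 3.86 for *Afp*, under the median of all probe sets (4.22 to 4.34), so the size of this rise is not an exact fold. *Vnn1*, *Fabp1* and *Cyp4a14* were lower than in CREB3L3-/- livers by -4.99, -4.84 and -4.4, and *Fabp2* by -2.2. Interferon-stimulated genes had 16 of 29 members lower (median -1.2) and cholesterol synthesis 14 of 20 (median -1.21).

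**Figure D3:**
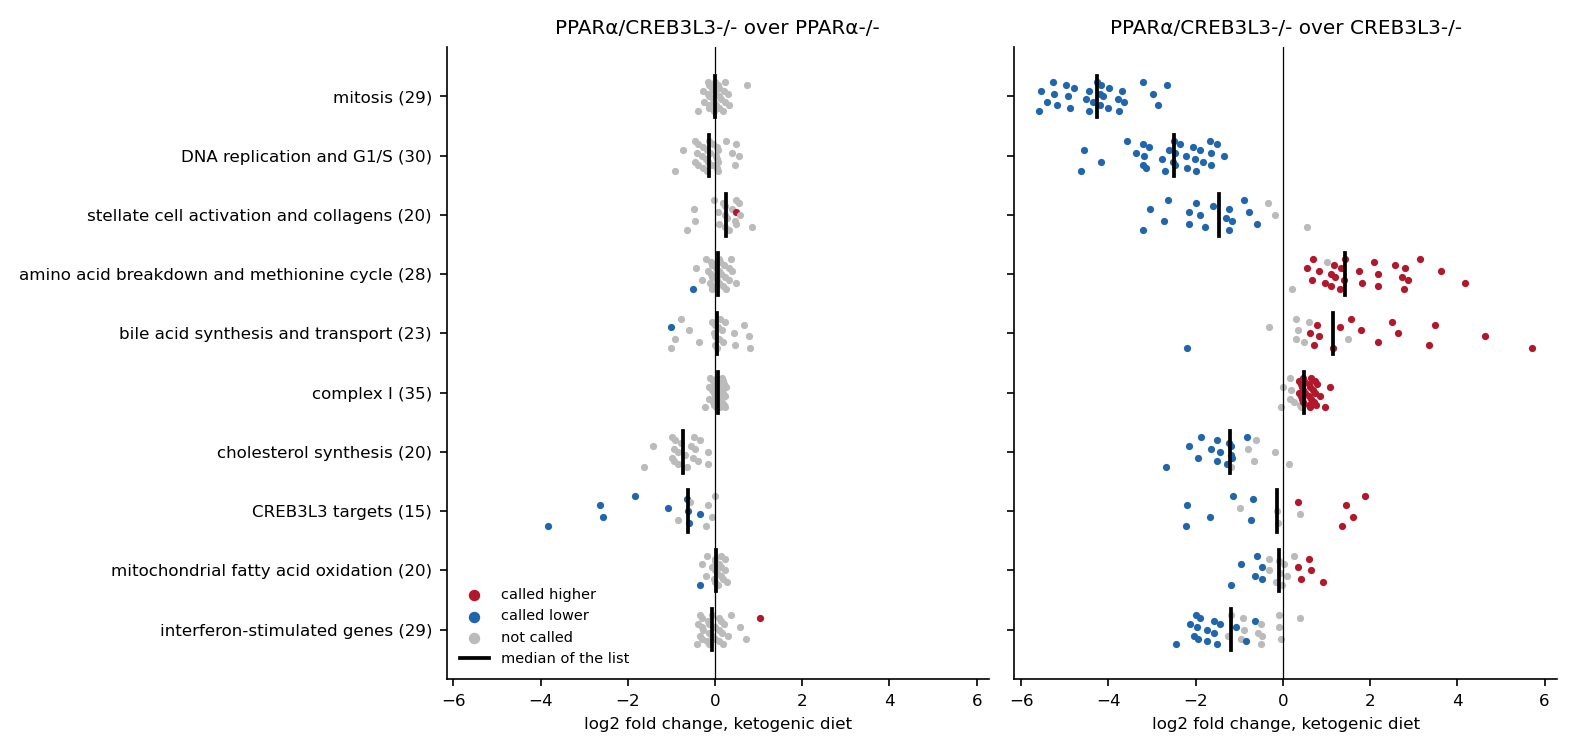
Log2 fold change of PPARα/CREB3L3-/- livers over PPARα-/- livers (left) and over CREB3L3-/- livers (right) on the ketogenic diet (horizontal axes) for members of 10 gene groups (points), coloured by the call, with the median as a bar (n = 4, 3 and 4 livers). Mitosis has a median of 0.01 on the left and -4.27 on the right.

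To see how far these effects depend on the regimen, the effect of the combined knockout on the ketogenic diet was set against its effect after the fast, measured on 8 other livers. After the fast 1837 genes were called (9.76%), and the difference of the effects itself was called in 1836 genes (9.76%), 639 of them with a higher and 1197 with a lower effect on the ketogenic diet. Of the genes higher on the ketogenic diet 288 were higher in both regimens, which is 20.6% of the 1400 ketogenic and 26.3% of the 1093 fasted genes. Of those lower, 402 were lower in both, or 20.8% of the 1931 ketogenic and 54% of the 744 fasted genes. Calls in opposite directions were 16 among genes higher and 97 among genes lower on the ketogenic diet.

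Groups fell into several patterns between the regimens. Mitochondrial oxidation had 19 of 20 members lower on the ketogenic diet and 18 lower after the fast, with medians of -1.24 and -1.08 and 1 member whose effect differed. *Mfsd2a* had a fasted effect of -7.2, with 4.15, 3.68, 3.57 and 4.06 in fasted PPARα/CREB3L3-/- livers. These readings are as dim as those on the ketogenic diet, so the sizes of the 2 effects cannot be compared. *Vnn1*, *Fabp2* and *Fabp1* had a lower effect on the ketogenic diet by -2.16, -2.2 and -3.55. Ribosomal protein genes had 42 of 42 higher on the ketogenic diet and 2 higher after the fast (median 0.1), and the difference was called in 41 of them. Their mean level per liver after the fast was 10.13 to 10.23 in PPARα/CREB3L3-/- livers and 10.05 to 10.09 in WT livers. *Car3* differed by -6.07 (adjusted p = 1.8e-06), with a fasted effect of 0.18, and male-biased genes had 1 of 21 lower after the fast.

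Interferon-stimulated genes and cholesterol synthesis changed sign. Of the interferon-stimulated genes 22 were lower on the ketogenic diet and 22 of the 29 were higher after the fast (median 1.35), and the difference was called in all 29 (median -2.77). Their mean level after the fast was 7.85 to 8.61 in PPARα/CREB3L3-/- livers and 6.73 to 7.19 in WT livers, whereas on the ketogenic diet it was 5.61 to 5.94 in PPARα/CREB3L3-/- livers and 6.92 to 8.15 in WT livers. *Ifit3* had an effect of -2.66 on the ketogenic diet and 2.17 after the fast (difference -4.83, adjusted p = 2.6e-08). Cholesterol synthesis had 10 of 20 members lower on the ketogenic diet and 9 higher after the fast (median 0.97), with the difference called in 16. Coagulation and complement had 17 of 35 lower on the ketogenic diet, and after the fast 3 were higher and 0 lower. Genes of the unfolded protein response were higher in 5 of 23 cases on the ketogenic diet and in 15 after the fast, and the difference was called in 3. Summed macrophage and endothelial markers, given above for the ketogenic diet, had 0 members called after the fast.

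**Figure D4:**
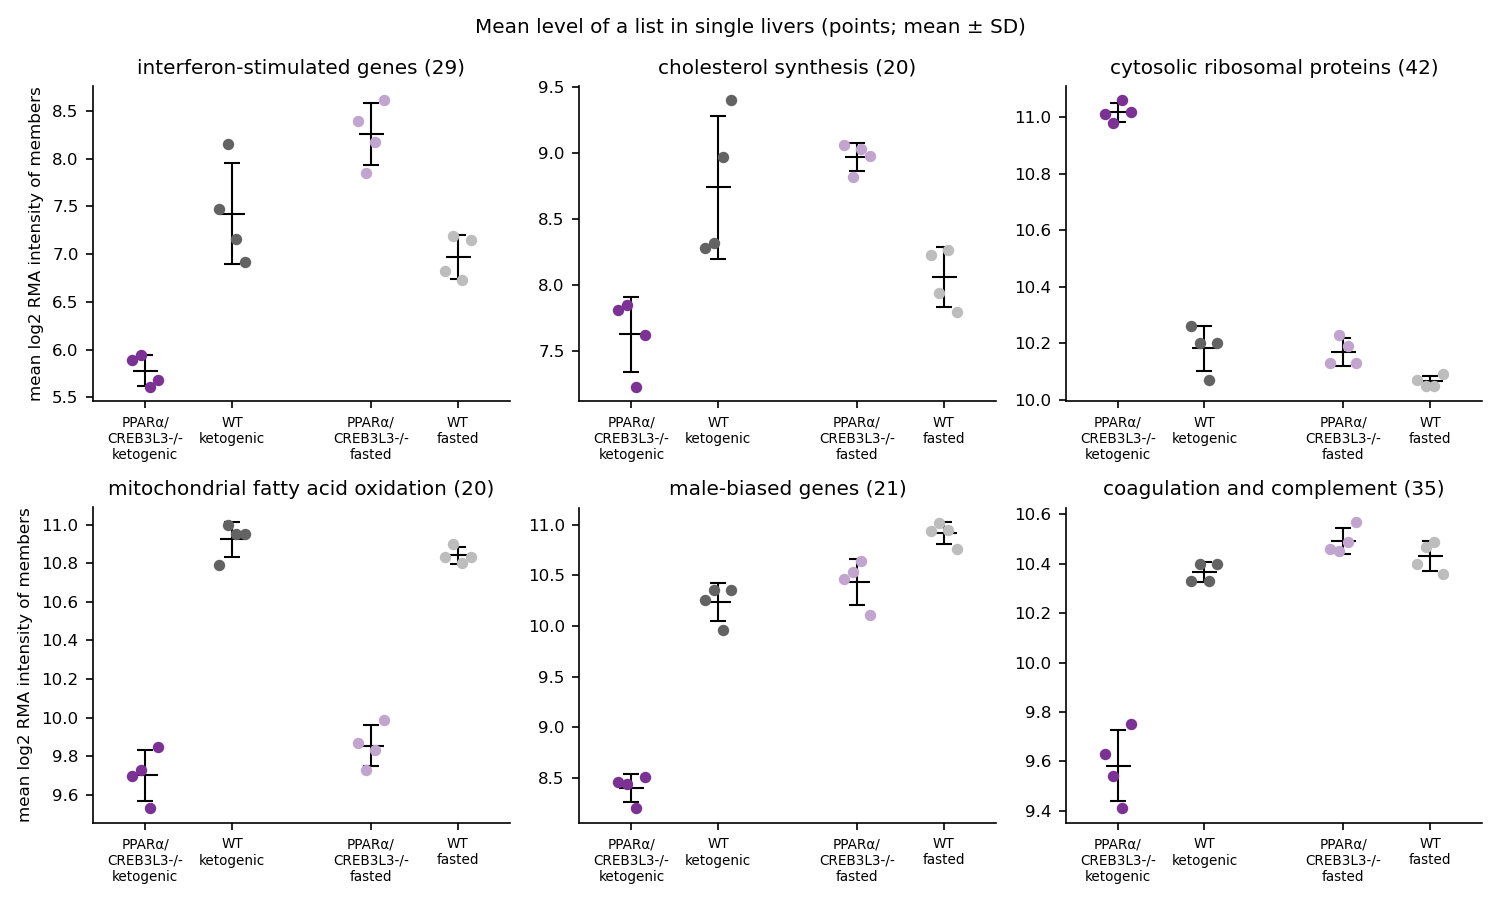
Mean log2 RMA intensity of the members of 6 gene groups (vertical axes, scaled per panel) in single livers (points) of PPARα/CREB3L3-/- and WT mice on the ketogenic diet and after the fast, with mean ± SD (n = 4 livers a group). Interferon-stimulated genes and cholesterol synthesis are lower than WT on the ketogenic diet and higher than WT after the fast.

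**Figure D5:**
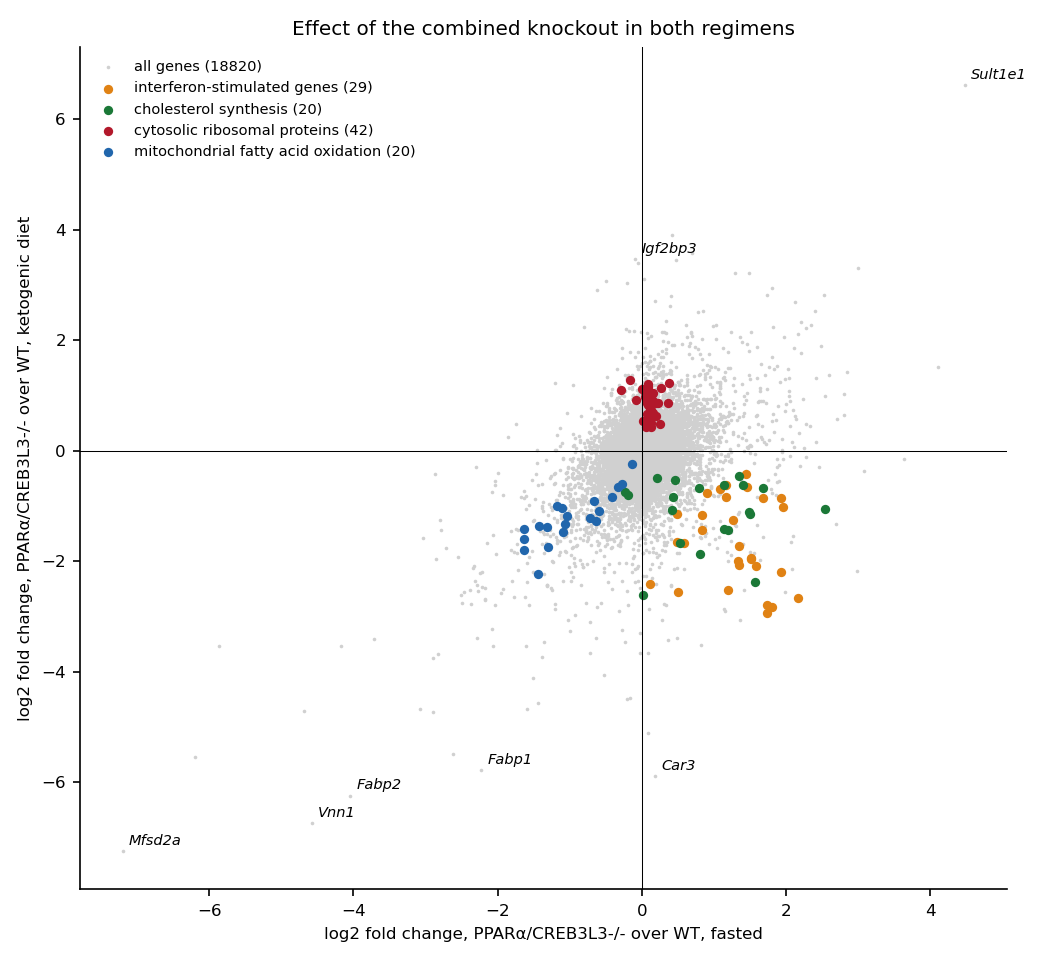
Log2 fold change of PPARα/CREB3L3-/- over WT livers on the ketogenic diet (vertical axis) and after the fast (horizontal axis) for 18820 genes (grey) and the members of 4 gene groups (coloured), n = 4 livers a group. *Mfsd2a* lies at -7.24 and -7.2, *Car3* at -5.89 and 0.18.

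Genes next to the targeted loci can carry sequence of the strain the allele was made in. Of the 40 measured neighbours of *Ppara* 5 were called (12.5%) and of the 40 neighbours of *Creb3l3* 10 (25%), against 17.7% of all genes called in either direction. Against PPARα-/- livers, which share the PPARα allele, 7 of the 40 neighbours of *Creb3l3* and 1 of those of *Ppara* were called, against 3.44% of all genes. Against WT, in total 15 were called, 8 without PPARα/CREB3L3-/- replicate 3. The 5 near *Ppara* are *Samm50* (log2 fold change 0.69), *5031439G07Rik* (-1.01), *Fam118a* (1.04), *Ttc38* (-0.93) and *Trmu* (0.51), named because they are few and after their values were seen. Of these, 3 were also called after the fast. Whether strain sequence has a part in these calls was not tested.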

How the data were processed

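Total RNA of single livers was isolated with TRIzol followed by RNeasy Micro columns. For labelling, the study's methods give an Ambion WT expression kit and the sample labels a Whole-Transcript Sense Target Assay of Affymetrix. The authors normalized the arrays by RMA (AffyPLM, version not stated), and the methods do not say whether all 30 were processed together. What they deposited is a log2 intensity for each of 35556 probe sets, from 0.698 to 13.7. A remapped chip definition is named in the methods, but identifiers in the values are of the manufacturer's kind, and no remapping was attempted here. Of these, 21218 carry 1 gene symbol by the platform annotation, and 1881 carry several and 12457 none. The 21218 cover 18820 genes, 1386 of them with several probe sets, of which the brightest was used except for the largest changes. RMA is relative between arrays, so a change in total RNA per cell is not visible.

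The values were fitted with limma 3.58.1 in R 4.3.3 (tables with version 1.17.8 of data.table), with 1 mean for each of 8 groups, an intensity trend, 22 residual and 3.47 prior degrees of freedom. Calls needed P under 0.001 and a fold change beyond 1.2, and p-values were adjusted by Benjamini-Hochberg across the full array. The fit was tested on simulated data. The labels do not say more of the replicates than that they are separate livers. No value column was left out, and no batch is given in the labels. Arrays carry no read depth, so precision follows from how many livers a group has.

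Members and gene lists were chosen with earlier results of these data known, so no test was made over a list. Named genes are the 12 largest called increases and the 12 largest decreases whose groups did not overlap, both targeted genes, up to 3 members of each list by lowest P, the genes the paper names, and the 5 largest differences in each other comparison. Of 1295 entries of 59 lists, 1144 matched a gene, 17 by synonym. Alternatives were other arrays in the fit, a replicate block, array weights, other variance models and scalings, filters on dim probe sets, other thresholds and leaving out single arrays. Figures were drawn with Python and matplotlib.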

Additional observations from a re-analysis of the deposited data

Results flagged for a closer look

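The effect of the combined knockout differed between the ketogenic diet and the fast in 69 of the 114 genes named from the rule, by the test of the difference itself, against 1836 of all 18820 genes (9.76%). These genes were named for large ketogenic effects and, in part, for the difference itself, so their count and its direction follow in part from that choice and are a description only. In 54 of them the effect was lower on the ketogenic diet and in 15 it was higher. Log2 differences (ketogenic minus fasted) of metabolic genes were -2.71 for *Aacs*, -3.88 for *Abcd2*, -3.12 for *Acaa1b*, -0.64 for *Acat1*, -1.59 for *Adh4*, -2.11 for *Bdh1*, -0.8 for *Cpt2*, -3.55 for *Fabp1*, -2.2 for *Fabp2*, -1.82 for *Fads2*, -2.88 for *Fitm1*, -2.09 for *Nudt7*, -2.16 for *Vnn1*, -2.67 for *Insig1*, -1.5 for *Sc5d*, -2.63 for *Tm7sf2*, -2.35 for *Scd1*, -1.58 for *Srebf1*, -0.95 for *Nr1h3*, -2.6 for *Ugt3a1*, -4.32 for *Ces3a*, -1.56 for *Glul* and -0.29 for *Idh3b*, but 1.54 for *Slc27a1*. Plasma proteins, hormones and hepatocyte genes were at -0.33 for *Alb*, -0.4 for *Apoa1*, -1.12 for *Apoc1*, -1.8 for *Apon*, -1.36 for *Cfb*, -1.68 for *Mbl1*, -3.35 for *Saa4*, -1.92 for *Serpind1*, -5.19 for *Serpina4-ps1*, -0.86 for *Ttr*, -2.58 for *Igfals*, -1.39 for *Ghr*, -0.61 for *Hnf4a*, -6.07 for *Car3*, -3.1 for *Elovl3* and -1.67 for *Mup3*. Immune, blood and cell cycle genes were at -2.53 for *Bst2*, -4.43 for *Cxcl9*, -4.68 for *Gbp3*, -4.63 for *Ifit1*, -4.83 for *Ifit3*, -2.13 for *Iigp1*, -3.72 for *Irf7*, -0.69 for *H2-K1*, -2.04 for *Psmb8*, -1.33 for *Tapbp*, -1.75 for *Clec4f*, -1.07 for *Csf1r*, -2.28 for *Alas2*, -2.32 for *Ccnd1* and -1.95 for *E2f8*. Genes with a higher effect on the ketogenic diet were *Afp* (1.83), *Cd63* (2.39), *Ctsl* (0.81), *Gipc2* (3.24), *Gldn* (2.87), *Gm6614* (3.08), *Gpx3* (3.49), *Igf2bp3* (3.55), *Pls1* (2.97), *Treh* (3.56), *Wnt4* (3.45), *Rpl13* (1.11), *Rpl35* (1.08) and *Rplp1* (0.83).

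A single liver lay far from the other 3 of its group in 14 of 228 groups of 4 livers examined, by a gap that took up most of the group's range (Dixon's criterion), and chance flags about 1 in 20 groups. Among PPARα/CREB3L3-/- livers replicate 2 was high in *Acsl5* (9) and *Ldha* (11.31) and low in *Mtnr1a* (2.96), replicate 3 was low in *Hadha* (10.64), and replicate 4 was high in *Glul* (11.11). Among WT livers replicate 1 was high in *Afp* (3.86), *Ctsl* (11.27) and *Gpnmb* (6.81), and replicate 2 in *Aldh3a2* (12.24) and *Vnn1* (11.11). WT replicate 3 was high in *Pls1* (5.58) and *Srebf1* (9.49) and low in *E2f8* (6.03), and replicate 4 was low in *Fabp2* (10.54).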

How the results depend on the processing

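Over the values of single genes under the alternatives, 3488 kept direction and side of the threshold, 66 lost the call, 16 gained it and 0 reversed. Of the group medians 1040 stayed within a small fixed margin of the main value, 80 moved and 0 reversed. A reversal was counted only where both medians were at least that margin from 0. A fold change above 2 gave 390 probe sets higher and 671 lower (1884 and 2013 at the main threshold), 103 against PPARα-/- (678), 2172 against CREB3L3-/- (5758), 852 for the difference between regimens (2293), 189 shared by both regimens (744), 2 neighbours (15) and 260 group members (453), by the construction of the threshold. An adjusted p under 0.05 without a fold criterion gave 3523 for the difference and 1338 shared. Fitting only the ketogenic arrays gave 332 against PPARα-/-. Fitting only the compared groups, which leaves fewer arrays to estimate the spread, gave 158 against PPARα-/-, 3635 against CREB3L3-/- and 8 neighbours. Leaving out single arrays gave 1625 to 1783 higher, 1671 to 1958 lower, 284 to 824 against PPARα-/-, 5133 to 5813 against CREB3L3-/-, 1978 to 2264 for the difference, 604 to 877 shared, 8 to 14 neighbours and 409 to 445 group members.

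With the replicate number as a block, 1865 probe sets were higher and 2004 lower. The labels do not say that a number is shared between mice, and deviations of same-numbered livers from their group means correlated at -0.0087, 0.073, 0.098 and 0.042. Median centring moved the share of higher calls to 39.6%, against 48.3%. Signal over background limits dim genes, and 4 livers a group, 3 for PPARα-/-, limit the precision throughout.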

Other observations

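Some gene families outside the groups above were looked at after their values were seen, and their counts are a description only. Of 18 heat shock chaperones and their partners 8 fell and 0 rose in PPARα/CREB3L3-/- against WT livers on the ketogenic diet (median log2 fold change -0.37). *Hsph1*, a nucleotide exchange factor of HSP70, read 6.85, 6.99, 6.73 and 6.73 in PPARα/CREB3L3-/- livers and 9.04, 9, 8.94 and 8.73 in WT livers (-2.1, SE 0.18, adjusted p = 8.9e-10). *Chordc1*, a partner of HSP90, was at -1.6 (SE 0.15), *Dnaja1*, a J-domain cochaperone, at -1.27 (SE 0.1) and *Fkbp4*, an immunophilin, at -1.07 (SE 0.17). Against PPARα-/- livers *Hsph1* was lower by -1.51 (SE 0.19), and 7 of the 18 were lower and 0 higher. *Hspa8*, the constitutive HSP70, was at -0.1 (SE 0.07) against WT and not called. After the fast 8 of the 18 were lower in PPARα/CREB3L3-/- than in WT livers (median -0.42).

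All 6 measured genes of MHC class II presentation fell on the ketogenic diet (median -2). *Cd74*, the invariant chain, read 5.88, 5.57, 4.62 and 6.08 in PPARα/CREB3L3-/- livers and 8.7, 8.42, 7.8 and 8.45 in WT livers (-2.8, SE 0.28), and *H2-Ab1*, a class II beta chain, was at -2.78 (SE 0.25). After the fast 0 of the 6 were called (median 0.28), and limma on the ketogenic diet called 5 of them lower than in CREB3L3-/- livers. Against PPARα-/- livers on that diet 0 of the 6 were called (median -0.27). *Cd74* averaged 6.08 in PPARα-/- livers and *H2-Ab1* 5.36, so these low levels were not particular to the combined knockout. Of the 14 macrophage markers given above, 6 were lower and 2 higher than in WT livers. In CREB3L3-/- livers 8 of these markers were higher than in WT and 0 lower (median 1.07). There *Cd74* averaged 8.02, against 8.34 in WT livers, and *H2-Ab1* 7.5 against 7.77. The part of macrophages in the class II result was not tested.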
